A study of Mus musculus with 15 samples.

Results

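The genes described here encode the enzymes and carriers that take up glucose, break it down to pyruvate and lactate, and store it as glycogen. They were chosen by name, with earlier results of these data known, as 35 genes of the 18804 in the count table. They cover GLUT1, each step of glycolysis, lactate dehydrogenase and the lactate carriers, the pyruvate dehydrogenase kinases and the glycogen enzymes. The list sets no threshold on a measured value, and all 35 passed the filter on low counts. Pyruvate kinase M is listed in the table as Pkm2. The table uses other names for the phosphoglucomutases, so that its Pgm2 is the gene now named Pgm1, and its Pgm1 is the gene now named Pgm2. RNA was sequenced from white adipocytes of C57BL/6J mice, differentiated in culture from mesenchymal stem cells (MSCs) of the ear, in 3 groups of 5 libraries. Cells of the day 0 group were kept at 37°C, those of the day 1 group went to 31°C on differentiation day 15, and those of the day 12 group on differentiation day 4. Cells of all 3 groups were harvested on day 16, so length of exposure and stage of differentiation at the move cannot be told apart. All groups had received the same adipogenic mixture of methylisobutylxanthine, dexamethasone, insulin and a further compound. The study's methods name this compound as troglitazone in a section on differentiation and as rosiglitazone in a section on cell culture. Whether replicates were separate mice, separate dishes or repeats of one RNA is not stated, so SDs and p-values measure the spread between these libraries, which may be technical.

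Glucose enters most cells through GLUT1, is trapped by hexokinase as glucose-6-phosphate, and is committed to glycolysis by phosphofructokinase-1. Fructose-2,6-bisphosphate, made and removed by the PFKFB enzymes, activates phosphofructokinase-1. The later steps of the pathway turn triose phosphates into pyruvate, which lactate dehydrogenase reduces to lactate or which pyruvate dehydrogenase passes to the mitochondria unless a pyruvate dehydrogenase kinase blocks it. White adipocytes use glucose for fatty acid and glycerol-3-phosphate synthesis, release much of it as lactate, and keep a small glycogen store. Many of these genes are known targets of the hypoxia-inducible factors.

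Libraries held between 64648178 and 133270973 counts, and replicate libraries differed by a coefficient of variation of 5.25%, from the common dispersion. Levels are given as CPM, counts divided by library size after TMM scaling. The least counted value of a listed gene, in any library, was 334 counts, for Eno3. In the marker lists, the 8 adipocyte markers summed to between 4386 and 5010 CPM at day 0, 5319 and 5899 CPM at day 1, and 4685 and 5256 CPM at day 12. The 6 chondrocyte markers were also present, at 3681 to 4416 CPM at day 0, 3926 to 4081 CPM at day 1 and 1153 to 1250 CPM at day 12, with Comp, a cartilage matrix protein, alone at 3717 CPM in the day 0 mean. At day 12 Comp, Acan and Sox9 fell (log2 fold changes -2.02, -0.97 and -0.79), Col9a1 rose (1.05), Matn3 rose at under 1 CPM, and Col2a1 had 0.29, under the fold limit. The summed levels of the other lists were at most 14.2 CPM for 7 macrophage markers, 1.53 CPM for 6 endothelial markers and 2.06 CPM for 7 skeletal muscle markers. Ptprc, the pan-leukocyte marker, stayed under 1 CPM in every library. In bulk cultures such as these, fewer cells of a type and less RNA per cell cannot be told apart. The library numbers in the sample titles fall into 2 series whose meaning is not given, with 1 or 2 libraries of each group in the smaller one.

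The first question was how the pathway as a whole stood after 1 and 12 days at 31°C. A gene is said to have risen or fallen when edgeR's quasi-likelihood test gave a Benjamini-Hochberg adjusted p under 0.05 over the 14293 genes tested and the fold change was over 1.5. At day 1 against day 0, 9 of the 35 genes fell, against 13.4% of all genes tested, and 2 rose, against 7.71% of all genes. At day 12 against day 0, 20 fell, against 16.2% of all genes, and 0 rose, against 13.0% of all genes. Of the 35 genes, 2 had an unadjusted p under 0.05 with a higher level at day 12, and DESeq2 also called 0 higher. The median log2 fold change of the 35 genes was -0.29 at day 1 and -0.66 at day 12, beside -0.00884 and 0.0123 for all genes tested. At day 12 against day 1, 8 fell, against 8.53% of all genes, and 0 rose, against 10.6%, with 4 at an unadjusted p under 0.05 and a higher level and 0 called higher by DESeq2. The 8 were 5 with total counts and 6 with reference genes. The median of the 35 genes was then -0.19, beside 0.0092 for all genes. Without the fold limit, the adjusted p alone passed 24 lower and 9 higher genes at day 1, where the shares of all genes were 36.2% and 35.3%. It passed 27 lower and 2 higher at day 12, beside 37.4% and 39.2% of all genes, and 29 lower and 4 higher at day 12 against day 1, beside 32.8% and 34.3%.

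In 28 of the 35 genes the 5 libraries of day 1 did not overlap those of day 0, and the same number did not overlap at day 12, where 57.4% and 64.6% of all genes tested did not overlap. Between day 1 and day 12, 25 did not overlap, beside 52.5% of all genes. The 35 genes together took 1.396% to 1.481% of a library's counts at day 0, 1.101% to 1.142% at day 1 and 1.082% to 1.136% at day 12, so the day 0 libraries stood above all others. The comparisons with day 0 share the same 5 day 0 libraries, and their values are set side by side. With libraries scaled by total counts, the median of all genes stood at 0.205 (log2) at day 12 and that of the 35 genes at -0.467, while the number that fell was 14. The difference of -0.672 between these medians was that of TMM by construction, since scaling shifts all genes alike. With the library series as a covariate, and within the larger series alone, 20 fell at day 12 and 9 at day 1.

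**Figure D1:**
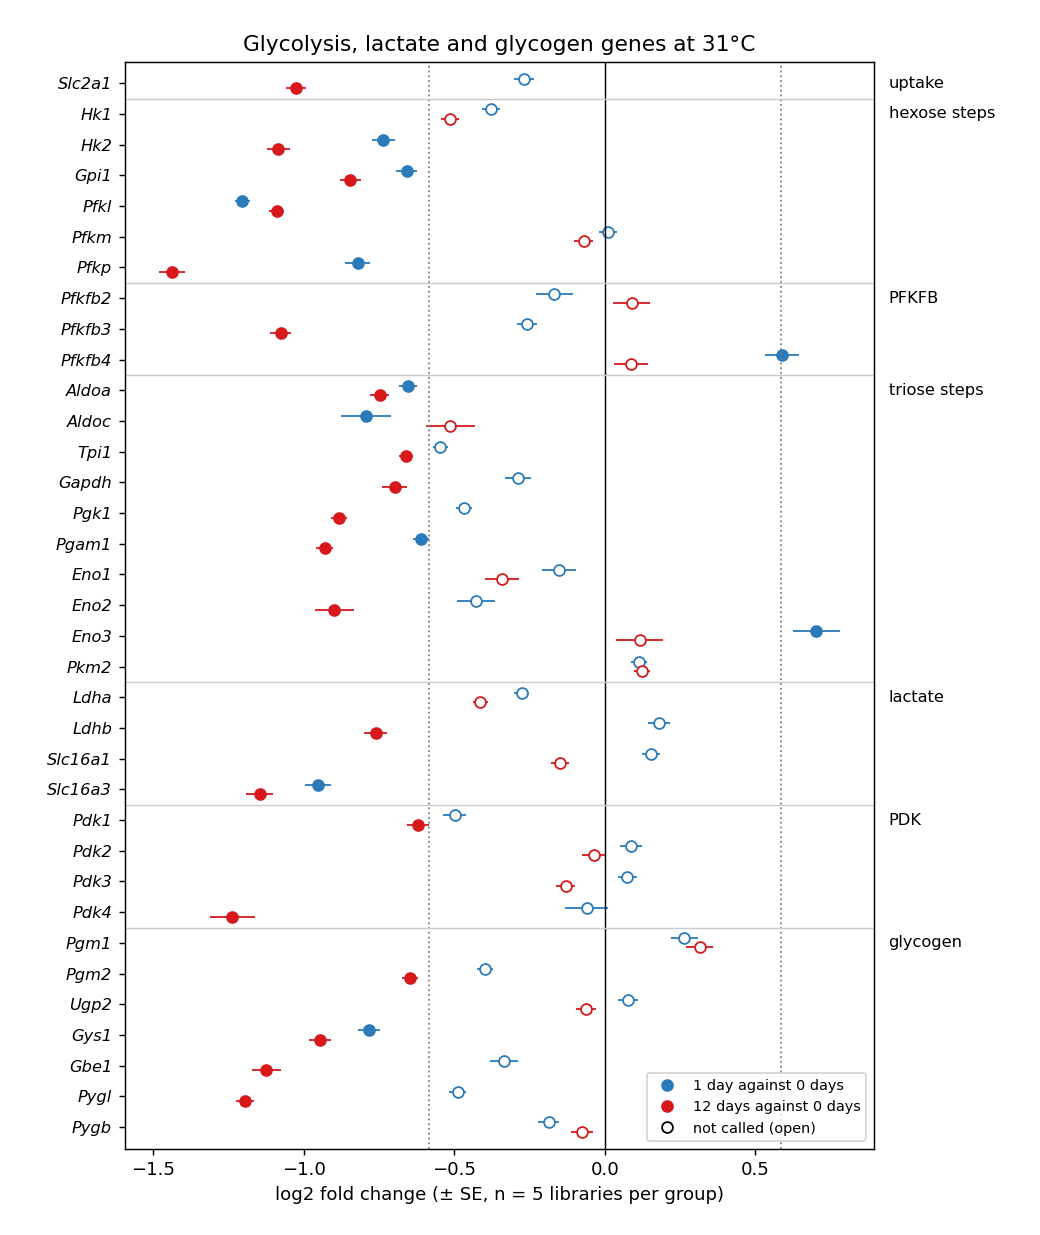
Log2 fold change of each of the 35 genes at day 1 (blue) and day 12 (red) against day 0, with SE bars (5 libraries per group). Filled points passed both the adjusted p and the fold limit, open points did not, and dotted lines mark a 1.5-fold change. No filled red point lies to the right of 0, and the 20 filled red points lie between -0.62 and -1.44.

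The sequence just before the start site is shown for 5 of the genes whose values are given in every library and which fell at day 12, and for Pkm2, which did not, because genes that move together raise the question of what their promoters hold. Each is the 150 bases upstream of a RefSeq start site, from 5′ to 3′ on the gene's own strand, in GRCm38.p6. Capitals mark ACGTG or GCGTG, the core letters of the hypoxia response element, or the reverse complement of either.
Slc2a1, chr4:119108595-119108744, plus strand: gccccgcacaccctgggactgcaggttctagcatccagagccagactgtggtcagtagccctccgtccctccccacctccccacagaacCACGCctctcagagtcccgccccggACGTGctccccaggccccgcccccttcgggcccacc
Pfkp, chr13:6648772-6648921, minus strand: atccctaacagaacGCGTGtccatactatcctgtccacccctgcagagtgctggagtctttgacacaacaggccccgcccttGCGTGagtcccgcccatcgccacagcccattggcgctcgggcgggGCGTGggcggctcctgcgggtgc
Pygl, chr12:70227684-70227833, minus strand: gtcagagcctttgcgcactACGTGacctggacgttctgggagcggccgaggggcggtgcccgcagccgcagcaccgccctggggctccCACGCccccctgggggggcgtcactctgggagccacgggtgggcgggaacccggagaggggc
Slc16a3, chr11:120948917-120949066, plus strand: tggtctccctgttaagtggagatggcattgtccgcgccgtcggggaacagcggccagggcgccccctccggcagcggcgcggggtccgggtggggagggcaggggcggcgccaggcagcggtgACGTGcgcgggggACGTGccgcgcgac
Pdk4, chr6:5496279-5496428, minus strand: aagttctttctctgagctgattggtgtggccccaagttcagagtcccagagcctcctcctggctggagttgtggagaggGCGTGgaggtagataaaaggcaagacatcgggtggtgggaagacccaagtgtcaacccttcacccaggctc
Pkm2, chr9:59657077-59657226, plus strand: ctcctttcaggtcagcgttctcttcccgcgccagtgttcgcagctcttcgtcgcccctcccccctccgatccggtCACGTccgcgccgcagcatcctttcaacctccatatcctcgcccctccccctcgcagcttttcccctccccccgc
For Pkm2 the window with the most matches of its 2 was taken. No rule set which of the genes that fell were shown, and all those shown hold a match. Gys1 meets the same description, was not shown, and had 0 matches in its window.

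The search covered windows from 250 bases before to 50 bases after each start site, on both strands. All 35 genes had a window, and 40 of their 52 windows (76.9%) held ACGTG or GCGTG, beside 14380 of all 32851 windows (43.8%). The member windows had a median GC content of 60.8%, the windows with a match one of 58.7% and all windows one of 52.7%, and the part of GC content in the share was not tested. By gene, 15 of the 20 genes that fell at day 12 had a match in any window, and so did 15 of the 15 others. The E-box CACGTG, whose letters contain ACGTG, was in 6 of the 52 windows (11.5%) and in 7.15% of all windows. A match of letters is a description and not evidence of a bound site.

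Transcripts of Slc2a1, Hk2 and Hk1, for glucose entry and the first phosphorylation, had lower means at 31°C, not all past the fold limit. Slc2a1 (chromosome 4, 119108711 to 119137983, plus strand, GRCm38) encodes GLUT1, the carrier for basal glucose uptake. Its level was 252, 229.8, 259, 234 and 248 CPM in the 5 day 0 libraries, 197, 199, 200.2, 210.1 and 210.0 CPM at day 1, and 114, 121, 118.5, 126 and 121 CPM at day 12. The 3 groups did not overlap and stepped down in order. Slc2a1 fell by 50.9% at day 12 (log2 fold change -1.03 ± 0.034 SE, adjusted p = 1.65e-18), and fell by 40.9% between day 1 and day 12 (log2 fold change -0.76 ± 0.034 SE, adjusted p = 1.33e-15). At day 1 the difference was -0.27 ± 0.033 SE on the log2 scale (adjusted p = 1.35e-07), under the fold limit. Hk2 (chromosome 6, 82725025 to 82774454, minus strand), the hexokinase whose level insulin and hypoxia raise, stood at 70.0, 63.6, 76.2, 68.9 and 64.9 CPM at day 0. It was at 41.7, 41.2, 41.3, 41.5 and 40.8 CPM at day 1 and 32.8, 31.8, 32.5, 33.6 and 31.5 CPM at day 12, again in 3 separate ranges. Hk2 fell by 40.0% at day 1 (log2 fold change -0.74 ± 0.038 SE, adjusted p = 2.39e-14) and fell by 52.8% at day 12 (log2 fold change -1.08 ± 0.039 SE, adjusted p = 8.92e-18). Hk1, the widely expressed hexokinase, had mean levels of 193 ± 7.46, 148 ± 4.70 and 135 ± 3.70 CPM at days 0, 1 and 12, with log2 fold changes of -0.38 ± 0.030 SE and -0.51 ± 0.030 SE, neither past the fold limit.

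Gpi1, which interconverts glucose-6-phosphate and fructose-6-phosphate, fell from 987 ± 48.5 CPM (SD, n = 5) to 625 ± 16.4 at day 1 and 549 ± 27.5 at day 12, with log2 fold changes of -0.66 and -0.85. Of its exon bases, 11.5% lie in an antisense gene whose reads could be counted with it, since the sources do not state whether the counting used strand. The 3 subunit genes of phosphofructokinase-1 did not move alike. Pfkl, the liver-type subunit, had the largest drop of the 35 genes at day 1, from 469 ± 13.5 to 203 ± 2.05 CPM (log2 fold change -1.20 ± 0.025 SE, adjusted p = 1.16e-21), and stood at 220.1 ± 4.83 CPM at day 12 (log2 fold change -1.09 ± 0.025 SE, adjusted p = 2.48e-21). Pfkp (chromosome 13, 6579768 to 6648777, minus strand), the platelet-type subunit, was at 209.8, 196, 230.4, 185 and 193 CPM at day 0, 114, 113, 116, 120.2 and 111 CPM at day 1 and 71.4, 74.2, 77.2, 74.7 and 76.7 CPM at day 12. These ranges were separate, and Pfkp had the largest drop of the 35 genes at day 12, when it fell by 63.1% (log2 fold change -1.44 ± 0.044 SE, adjusted p = 3.24e-19), after it fell by 43.4% at day 1 (log2 fold change -0.82 ± 0.043 SE, adjusted p = 2.19e-14). Between day 1 and day 12 it fell by 34.8% (log2 fold change -0.62), a call lost with total counts (-0.445) and with reference genes (-0.584). Pfkm, the muscle-type subunit, had mean levels of 76.8 ± 1.20, 77.3 ± 3.45 and 73.2 ± 1.95 CPM at days 0, 1 and 12, and its ranges overlapped in all 3 pairs of groups. Its log2 fold change was 0.010 ± 0.030 SE at day 1 (adjusted p = 0.782) and -0.070 ± 0.030 SE at day 12 (adjusted p = 0.0417), of opposite sign with total counts at day 12 (0.124). Of the exon bases of Pfkm, 10.7% lie in other genes.

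The PFKFB enzymes set the level of fructose-2,6-bisphosphate. Pfkfb3, the form with the highest kinase activity over phosphatase activity, fell from 423 ± 26.7 CPM at day 0 to 200.3 ± 4.27 CPM at day 12 (log2 fold change -1.08 ± 0.034 SE, adjusted p = 6.37e-19), with 354 ± 7.10 CPM at day 1 (log2 fold change -0.26). Between day 1 and day 12 it fell by 43.4% (log2 fold change -0.82 ± 0.034 SE, adjusted p = 2.94e-16). Pfkfb4 (chromosome 9, 108991778 to 109032228, plus strand), another bifunctional form, went the other way at day 1. Its level was 14.3, 12.8, 14.4, 16.2 and 14.2 CPM at day 0, 22.0, 19.5, 21.9, 22.3 and 22.3 CPM at day 1 and 14.7, 15.3, 16.4, 14.0 and 16.0 CPM at day 12. All day 1 libraries lay above those of the other groups, which overlapped each other. Pfkfb4 rose by 50.4% at day 1 (log2 fold change 0.59 ± 0.056 SE, adjusted p = 1.54e-09), just past the fold limit, and the call was lost under 9 of the alternatives, at 0.543 to 0.585, among them those without day 0 replicate 2 or 5 and without day 1 replicate 1, 4 or 5. Its difference at day 12 was 0.088 ± 0.057 SE (adjusted p = 0.162). Pfkfb2 stood at 19.1 ± 1.20, 17.1 ± 1.97 and 20.4 ± 0.998 CPM at days 0, 1 and 12, with overlap in all pairs of groups, and 19.5% of its exon bases lie in other genes.

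Of the 10 genes from aldolase to pyruvate kinase, 3 fell and 1 rose at day 1, and 6 fell and 0 rose at day 12, with 1 of the 10 at an unadjusted p under 0.05 and a higher level at day 12. Of all genes tested, 13.4% fell and 7.71% rose at day 1, and 16.2% fell and 13.0% rose at day 12. DESeq2 gave the same calls. Aldoa, the main aldolase, fell from 1908 ± 46.3 CPM to 1214 ± 45.4 at day 1 (log2 fold change -0.65) and 1136 ± 44.3 at day 12 (log2 fold change -0.75). Aldoc (chromosome 11, 78322968 to 78327781, plus strand), the aldolase best known from brain, was at 18.8, 15.8, 18.8, 15.6 and 15.8 CPM at day 0. Its levels were 9.77, 9.68, 9.37, 11.1 and 9.14 CPM at day 1 and 10.4, 10.2, 12.5, 14.6 and 12.0 CPM at day 12, and the later groups overlapped each other but not day 0. Aldoc fell by 42.3% at day 1 (log2 fold change -0.79 ± 0.083 SE, adjusted p = 7.17e-09), while the day 12 difference was -0.51 ± 0.082 SE on the log2 scale (adjusted p = 4.47e-06), under the fold limit but at -0.592 and past it without day 12 replicate 4, the library with the highest Aldoc at that time. Tpi1, triosephosphate isomerase, fell at day 12 from 1041 ± 25.0 to 659 ± 9.07 CPM (log2 fold change -0.66), with -0.55 at day 1. Pgk1, which makes the first ATP of the pathway, fell from 1583 ± 46.7 to 858 ± 24.4 CPM (log2 fold change -0.88 ± 0.028 SE, adjusted p = 7.46e-19), with 1145 ± 31.5 CPM at day 1 (log2 fold change -0.47). Pgam1, phosphoglycerate mutase, fell from 964.5 ± 36.5 to 632 ± 8.41 CPM at day 1 and 506 ± 13.5 CPM at day 12, with log2 fold changes of -0.61 and -0.93.

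Gapdh (chromosome 6, 125161715 to 125166467, minus strand), the dehydrogenase that is also a common reference transcript in qPCR, was at 1262, 1219, 1326, 1311 and 1250 CPM at day 0. It was at 1125, 1002, 1036, 1007 and 1049 CPM at day 1 and 717, 819, 802, 857 and 729.7 CPM at day 12, and no library of a later group reached the range of an earlier one. Gapdh fell by 38.4% at day 12 (log2 fold change -0.70 ± 0.042 SE, adjusted p = 1.84e-13), with -0.29 ± 0.042 SE at day 1 (adjusted p = 1.41e-06). Its counts are uncertain, because 71 other annotated genes, 67 of them pseudogenes, match at least 50% of its transcript at 95% identity or more. With total counts the day 12 values of Gapdh (-0.506), Tpi1 (-0.467) and Aldoa (-0.555) lay under the fold limit. The reference genes Tbp, Hprt, Ppia, Ywhaz and Gusb had log2 fold changes between -0.27 and 0.35 at day 12.

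The enolases differed from each other. Eno2, the neuronal-type enolase, fell at day 12 from 19.2 ± 1.48 to 10.3 ± 1.14 CPM (log2 fold change -0.90 ± 0.065 SE, adjusted p = 6.25e-12), with -0.43 at day 1. Eno3 (chromosome 11, 70657202 to 70662513, plus strand), the muscle-type enolase, was at 4.31, 4.91, 4.52, 4.11 and 4.16 CPM at day 0. It was at 6.70, 7.74, 6.86, 7.64 and 6.95 CPM at day 1 and 5.03, 4.72, 4.08, 4.76 and 5.24 CPM at day 12, so that the day 1 libraries lay above all others. Eno3 rose by 62.9% at day 1 (log2 fold change 0.70 ± 0.077 SE, adjusted p = 1.45e-08), while its difference at day 12 was 0.12 ± 0.078 SE (adjusted p = 0.177). The fall from day 1 to day 12 (log2 fold change -0.59 ± 0.077 SE, adjusted p = 3.67e-07) lost its call under several alternatives, at -0.414 with total counts, -0.554 with reference genes, -0.58 with the library series as a covariate, and -0.559, -0.564, -0.582 and -0.536 without day 1 replicate 2, day 1 replicate 4, day 12 replicate 2 and day 12 replicate 3. Eno1, the widely expressed enolase, was listed at 56.6 ± 5.59, 50.9 ± 3.74 and 44.8 ± 2.49 CPM at days 0, 1 and 12. A near-identical gene, Eno1b, matches 85.6% of its transcript at 99.5% identity, so reads of Eno1 could have been lost or split and its level is uncertain.

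Pkm2 (chromosome 9, 59656368 to 59679375, plus strand), pyruvate kinase M, which makes pyruvate and ATP in the last step, was 1 of the 2 listed genes with a higher level at day 12 at an adjusted p under 0.05, the other being the table's Pgm1. Its level was 2068, 1939, 2079, 1966 and 2035 CPM at day 0, 2168, 2131, 2150, 2236 and 2228 CPM at day 1 and 2150, 2212, 2206, 2267 and 2161 CPM at day 12. The later groups overlapped each other, and every library of them lay above every day 0 library. The difference was small, at 0.11 ± 0.026 SE at day 1 (adjusted p = 4.96e-04) and 0.12 ± 0.026 SE at day 12 (adjusted p = 1.61e-04), under the fold limit in both. As a share of the counts of the 35 genes, which does not depend on scaling, Pkm2 took 13.3% to 13.7% in the day 0 libraries, 18.4% to 18.9% at day 1 and 21.7% to 21.9% at day 12. The table does not split the M1 and M2 splice forms, and 15.3% of the exon bases lie in another gene on the same strand.

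**Figure D2:**
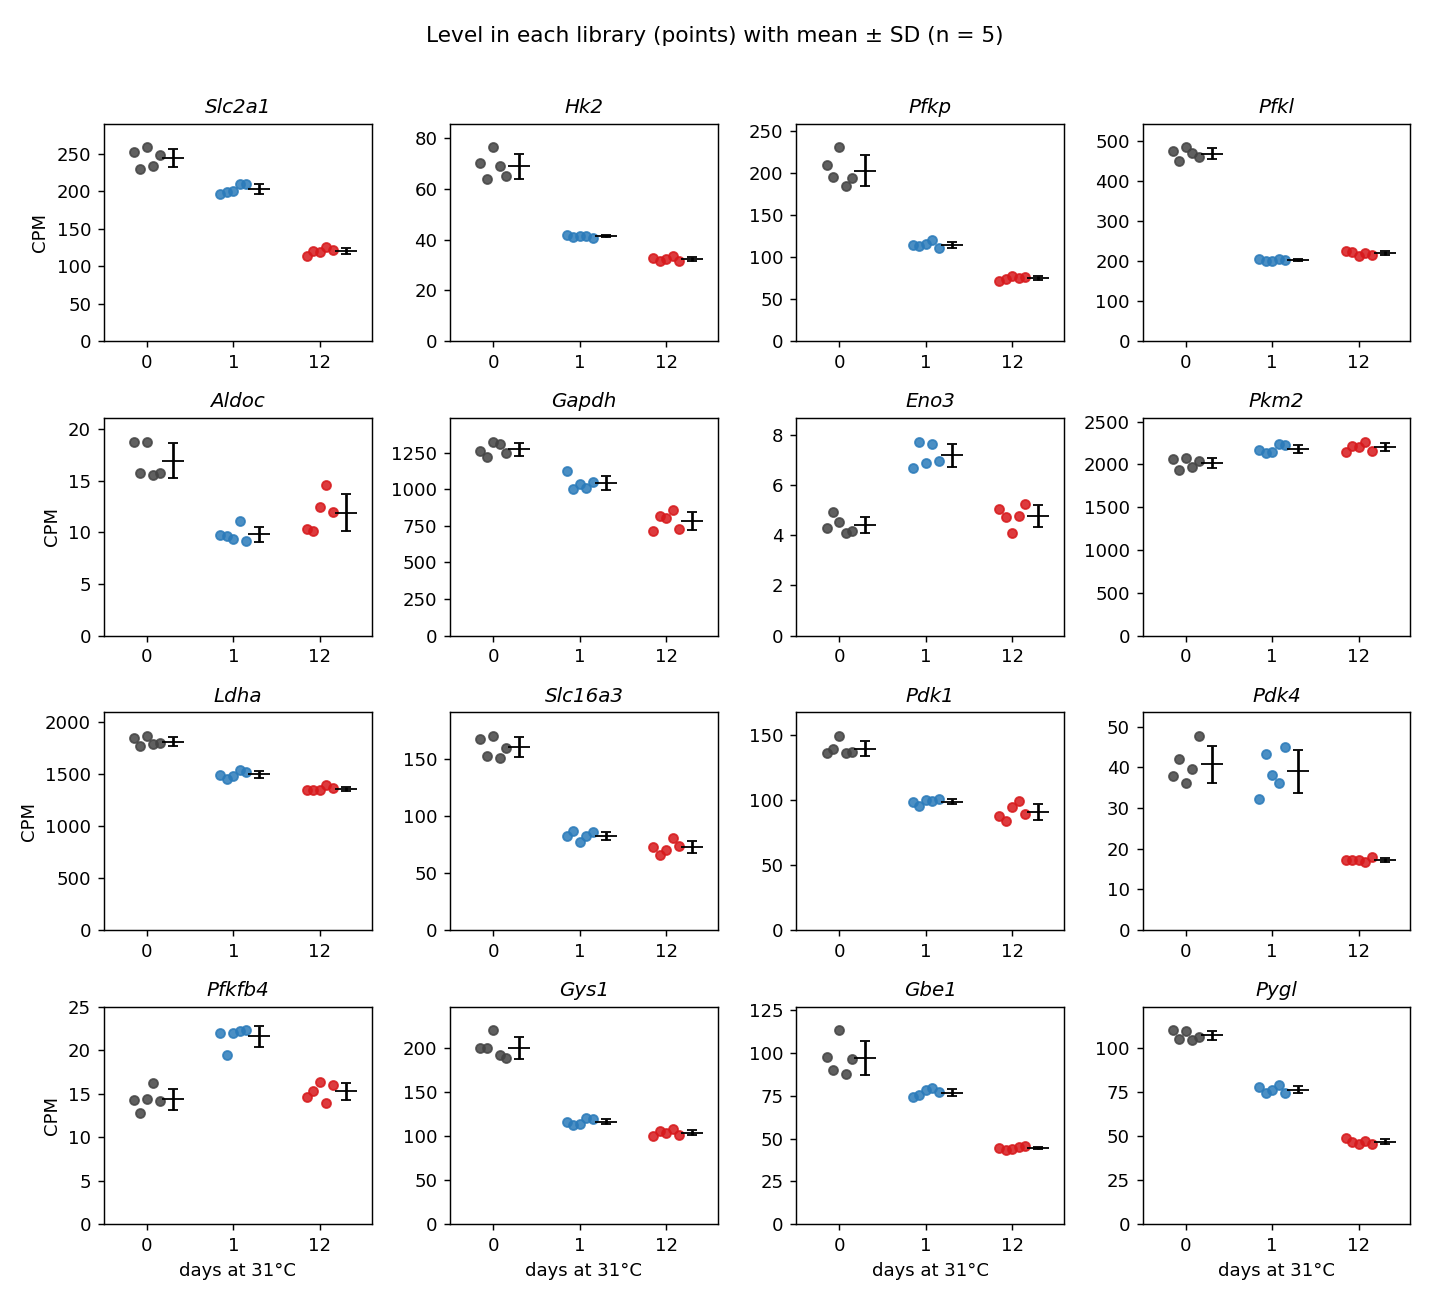
Level of 16 of the genes in each library, in CPM on axes that start at 0, by days at 31°C, with the group mean ± SD (5 libraries). Pdk4 is at 32.3 CPM or more in all libraries of days 0 and 1 and at 18.0 CPM or less at day 12, Pfkfb4 and Eno3 peak at day 1, and Pkm2 stays between 1939 and 2267 CPM.

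Levels per kilobase of exon were used to compare steps with each other, after summing the genes of a step. The length was the union of all annotated exons of a gene, which can exceed that of the transcripts present. Ranks between genes and steps rest on these lengths, while changes within a single gene do not. At day 0 phosphoglycerate kinase stood highest, at 706 ± 20.8 CPM per kilobase (SD, n = 5), followed by aldolase at 661 ± 16.4 and lactate dehydrogenase at 629 ± 11.5. Pyruvate kinase was at 403 ± 12.4 CPM per kilobase. At day 12 lactate dehydrogenase was at 459 ± 4.19, pyruvate kinase at 439.8 ± 9.35, aldolase at 394 ± 15.6 and phosphoglycerate kinase at 382.5 ± 10.9 CPM per kilobase. Among single genes Pkm2 moved from the fifth place at day 0 to the first at day 12, where its range of 429.8 to 453 CPM per kilobase lay above that of Ldha, at 405 to 420.1, while Ldha and Aldoa, and Aldoa and Pgk1, overlapped. The ratio of day 12 to day 0 was between 0.491 for GLUT1 and 0.774 for enolase in all steps but pyruvate kinase, where it was 1.09. Hexokinase and phosphofructokinase-1 stood at 34.1 ± 1.45 and 108 ± 3.39 CPM per kilobase at day 0, under every later step but enolase, and at 21.2 ± 0.426 and 60.5 ± 0.94 at day 12. The summed enolase level is uncertain for the reason given with Eno1, and that of GAPDH for the reason given with Gapdh.

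**Figure D3:**
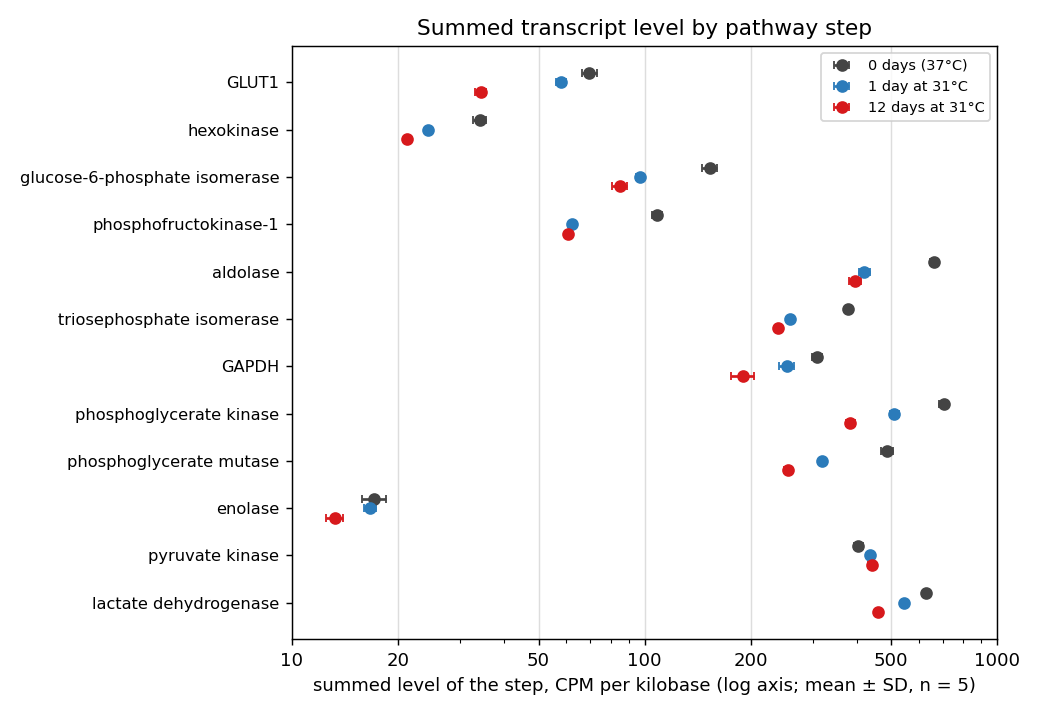
Summed level of the genes of each step from glucose uptake to lactate dehydrogenase, in CPM per kilobase of exon on a log axis, with the mean ± SD of 5 libraries per group. The day 12 means (red) lie left of the day 0 means (grey) in every step but pyruvate kinase, where they are 439.8 and 403 CPM per kilobase.

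The question at the end of the pathway was whether lactate formation and export moved with the upper steps. Ldha (chromosome 7, 46841475 to 46855627, plus strand), the subunit that favours lactate formation, was at 1842, 1767, 1868, 1784 and 1795 CPM at day 0. It was at 1492, 1449, 1483, 1538 and 1517 CPM at day 1 and 1342, 1347, 1349, 1391 and 1368 CPM at day 12, in 3 ranges that did not overlap. The log2 fold changes of -0.28 ± 0.025 SE (adjusted p = 4.63e-10) and -0.41 ± 0.025 SE (adjusted p = 1.58e-13) stayed under the fold limit. Ldhb, the subunit that favours lactate use, had mean levels of 128.5 ± 4.11, 146 ± 4.21 and 75.8 ± 5.41 CPM at days 0, 1 and 12. It fell by 41.0% at day 12 (log2 fold change -0.76 ± 0.038 SE, adjusted p = 5.69e-15), a call lost with total counts (-0.567), and fell by 47.9% between day 1 and day 12 (log2 fold change -0.94 ± 0.038 SE, adjusted p = 2.49e-16), after a difference of 0.18 ± 0.038 SE at day 1.

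The lactate carriers parted. Slc16a3 (chromosome 11, 120948480 to 120960868, plus strand) encodes MCT4, the low-affinity carrier of cells that export lactate. Its level was 168, 152, 170.2, 151 and 159.6 CPM at day 0, 82.2, 86.3, 77.4, 82.0 and 85.7 CPM at day 1 and 72.6, 66.1, 69.7, 80.2 and 73.3 CPM at day 12. The later groups overlapped each other and lay far under day 0. Slc16a3 fell by 48.4% at day 1 (log2 fold change -0.95 ± 0.043 SE, adjusted p = 1.82e-15) and fell by 54.8% at day 12 (log2 fold change -1.15 ± 0.044 SE, adjusted p = 2.75e-17). Slc16a1, which encodes the widely expressed carrier MCT1, stood at 201 ± 7.11, 224 ± 8.18 and 182 ± 4.74 CPM at days 0, 1 and 12, with log2 fold changes of 0.15 ± 0.030 SE and -0.15 ± 0.030 SE, the second at 0.046 with total counts. Bsg, basigin, the partner protein that brings both carriers to the cell surface, was one of the other genes of the pathway named by the rule. It was at 2512, 2432, 2842, 2299 and 2421 CPM at day 0, 2193, 2072, 1885, 1919 and 1959 CPM at day 1 and 814, 821, 847, 855 and 828 CPM at day 12, with no overlap. Bsg fell at day 12 (log2 fold change -1.59 ± 0.045 SE, adjusted p = 1.20e-19), with -0.32 ± 0.044 SE at day 1, and Emb, embigin, the other partner of MCT1, had -0.29 ± 0.027 SE at day 12, under the fold limit.

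The pyruvate dehydrogenase kinases, which switch off the entry of pyruvate into the citric acid cycle, fell in 2 of 4 cases at day 12 and in 0 at day 1, beside 16.2% and 13.4% of all genes tested. At day 1 neither edgeR nor DESeq2 called any of the 4, with 2 higher at an unadjusted p under 0.05, and 1, Pdk1, lower at an adjusted p under 0.05. Pdk4 (chromosome 6, 5483351 to 5496309, minus strand), the form raised by fasting and fatty acids, was at 37.9, 42.0, 36.2, 39.7 and 47.7 CPM at day 0 and 32.3, 43.3, 38.1, 36.1 and 45.1 CPM at day 1. At day 12 it was at 17.2, 17.2, 17.2, 16.6 and 18.0 CPM, under every library of the other groups, which overlapped. Pdk4 fell by 57.6% at day 12 (log2 fold change -1.24 ± 0.074 SE, adjusted p = 1.92e-13) and fell by 55.8% between day 1 and day 12 (log2 fold change -1.18 ± 0.075 SE, adjusted p = 1.15e-12), while its day 1 difference was -0.060 ± 0.071 SE (adjusted p = 0.458). Pdk1 (chromosome 2, 71873224 to 71903858, plus strand), the form raised by hypoxia, was at 136, 139.6, 149.6, 136 and 137 CPM at day 0. It was at 98.8, 95.6, 99.9, 99.4 and 101 CPM at day 1 and 87.5, 83.8, 94.5, 99.6 and 89.5 CPM at day 12, and the later groups overlapped each other but not day 0. Pdk1 fell by 34.9% at day 12 (log2 fold change -0.62 ± 0.037 SE, adjusted p = 1.86e-13), close to the fold limit and at -0.427 with total counts, with -0.50 ± 0.037 SE at day 1 (adjusted p = 1.72e-11). Pdk2 and Pdk3, the other forms, had log2 fold changes of -0.037 and -0.13 at day 12, which were 0.156 and 0.063 with total counts. Pdp1, a phosphatase that switches pyruvate dehydrogenase back on, rose at day 12 from 41.6 ± 3.80 to 82.5 ± 1.44 CPM (log2 fold change 0.99 ± 0.044 SE, adjusted p = 6.10e-16), with 0.20 ± 0.045 SE at day 1.

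Of the 7 glycogen genes, 1 fell at day 1 and 4 fell at day 12, beside 13.4% and 16.2% of all genes tested. None rose with edgeR or DESeq2, while 2 at day 1 and 1 at day 12 were higher at an unadjusted p under 0.05. Gys1 (chromosome 7, 45434844 to 45456619, plus strand), the glycogen synthase of non-hepatic tissue, was at 200.3, 199.8, 220.0, 191 and 189 CPM at day 0. It was at 116, 113, 114, 120.1 and 119 CPM at day 1 and 100.02, 106, 104, 108 and 101 CPM at day 12, in 3 separate ranges. Gys1 fell by 41.9% at day 1 (log2 fold change -0.78 ± 0.035 SE, adjusted p = 1.35e-15) and fell by 48.1% at day 12 (log2 fold change -0.95 ± 0.035 SE, adjusted p = 1.78e-17). Gbe1, the branching enzyme, fell at day 12 from 97.1 ± 10.1 to 44.6 ± 0.817 CPM (log2 fold change -1.12 ± 0.048 SE, adjusted p = 1.98e-16), with 77.0 ± 2.08 CPM at day 1, from which it fell by 42.1%. Pygl (chromosome 12, 70190811 to 70231488, minus strand), the liver-type phosphorylase that releases glucose-1-phosphate from glycogen, was at 109.9, 105, 109, 104 and 106 CPM at day 0. It was at 77.9, 74.1, 76.2, 78.5 and 74.0 CPM at day 1 and 48.9, 46.6, 45.4, 46.9 and 45.4 CPM at day 12, with no overlap. Pygl fell by 56.3% at day 12 (log2 fold change -1.20 ± 0.029 SE, adjusted p = 6.46e-21), and between day 1 and day 12 it fell by 38.8% (log2 fold change -0.71, or -0.535 and no longer called with total counts). Pygb, the brain-type phosphorylase, stood at 125 ± 6.00, 109.6 ± 2.46 and 118 ± 6.15 CPM at days 0, 1 and 12, with -0.075 ± 0.035 SE at day 12, of opposite sign with total counts (0.118).

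The remaining glycogen genes were the phosphoglucomutases and UDP-glucose pyrophosphorylase. The table's Pgm2 (now Pgm1, chromosome 4, 99929414 to 99987294, plus strand), the main phosphoglucomutase, fell at day 12 from 161 ± 4.14 to 103 ± 2.85 CPM (log2 fold change -0.65 ± 0.026 SE, adjusted p = 6.51e-17), a call lost with total counts (-0.454), and 13.6% of its exon bases lie in an antisense gene. The table's Pgm1 (now Pgm2, chromosome 5, 64092950 to 64128351, plus strand) stood at 15.4 ± 0.801, 18.5 ± 0.459 and 19.2 ± 1.05 CPM at days 0, 1 and 12. Its log2 fold changes of 0.27 ± 0.045 SE and 0.32 ± 0.045 SE had adjusted p of 1.35e-05 and 8.94e-07 and stayed under the fold limit. Ugp2, which makes UDP-glucose, stood at 139.6 ± 4.30, 147 ± 6.23 and 134 ± 6.09 CPM at days 0, 1 and 12, with -0.063 ± 0.034 SE at day 12 (0.13 with total counts).

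Shares of each enzyme family, computed within a library per kilobase of exon, do not depend on how libraries are scaled. Their sizes do rest on the exon lengths used. Of 18 isozyme shares tested, 14 differed from day 0 at day 1 and 16 at day 12, at an adjusted p under 0.05 over 36 two-sided exact permutation tests of 5 against 5 libraries, whose smallest possible p was 0.00794 (adjusted 0.00985). These tests have no fold limit. By edgeR's adjusted p alone, 36.2% of all genes were lower and 35.3% higher at day 1, and 37.4% and 39.2% at day 12. Shares in a family add up to a whole, so tests within a family depend on each other. How often shares of other gene families differ was not measured. The shares of phosphofructokinase-1 moved from Pfkl toward Pfkm: Pfkl went from 64.8% ± 0.578 (SD, n = 5) to 49.0% ± 0.964 at day 1 and 54.5% ± 0.741 at day 12, and Pfkm from 21.2% ± 0.443 to 37.2% ± 0.993 and 36.2% ± 0.607, each at the smallest exact permutation p. Pfkp held 13.95%, 13.8% and 9.24%, and its day 1 difference did not pass (exact permutation, adjusted p = 0.655). Hk2 went from 33.8% ± 1.48 of the hexokinase level to 28.5% ± 0.725 and 25.6% ± 0.777, and Slc16a3 from 39.8% ± 1.6 of the lactate carriers to 23.5% ± 0.866 and 24.9% ± 0.996. Pygl went from 37.4% ± 1.25 of the phosphorylases to 32.7% ± 1.07 and 21.6% ± 0.788. The share of Ldha moved in opposite directions, from 87.0% ± 0.547 to 83.0% ± 0.5 at day 1 and 89.5% ± 0.778 at day 12, each at the smallest exact permutation p. Pfkfb3 went from 90.9% ± 0.563 of the PFKFB level to 87.3% ± 0.202 and 81.7% ± 0.463. Pdk4 held 19.4% ± 1.96, 19.8% ± 2.16 and 10.9% ± 0.394 of the pyruvate dehydrogenase kinases, and Pdk3 29.2% ± 1.15, 33.0% ± 1.43 and 35.4% ± 0.906. Aldoc held at most 1.07% of the aldolase level in any library, and the shares of the 3 enolases are uncertain because of Eno1.

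**Figure D4:**
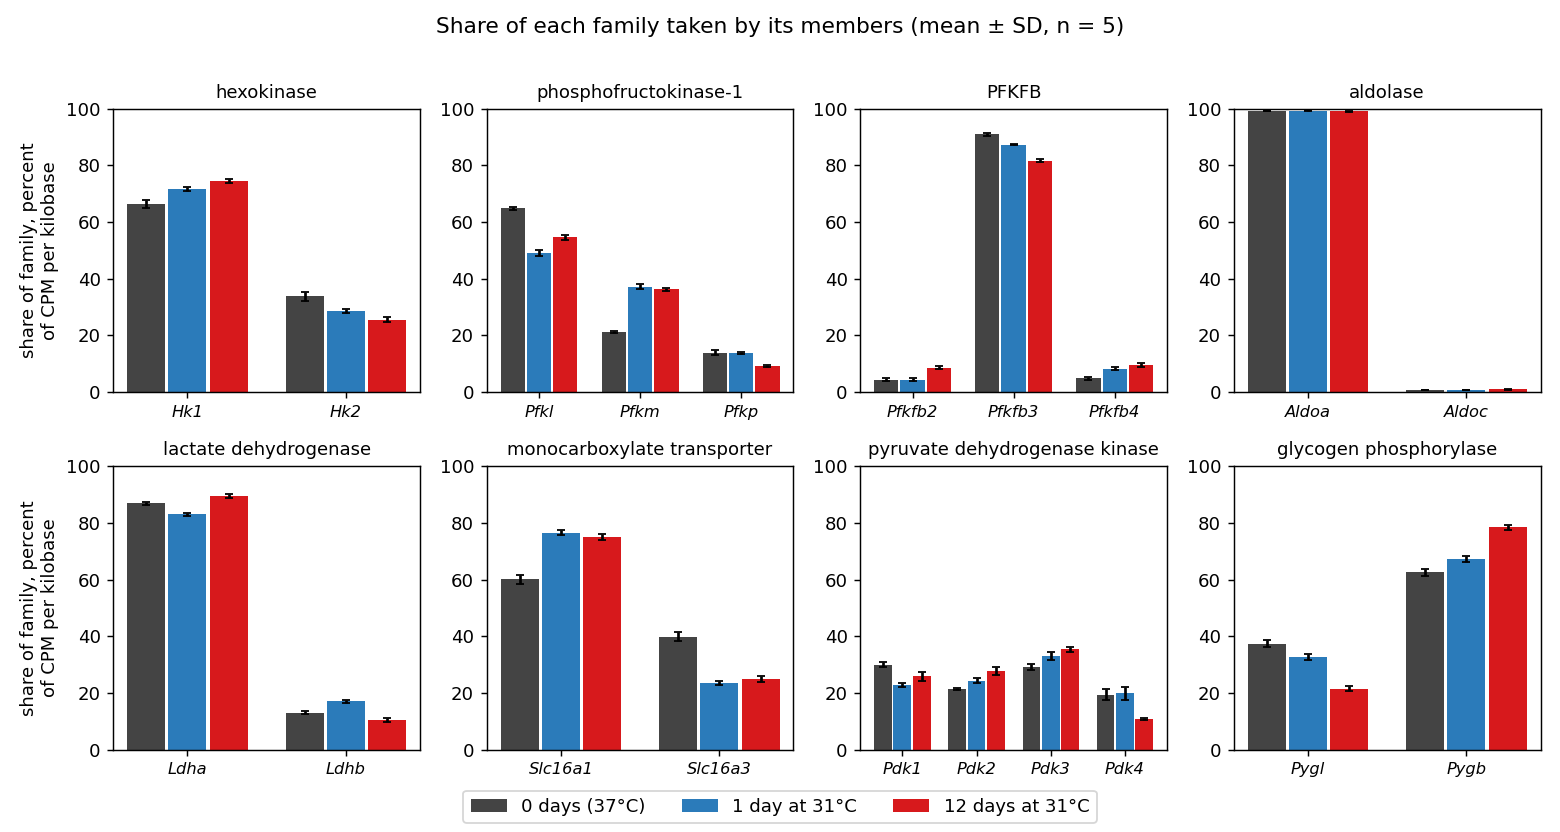
Share of the summed CPM per kilobase held by each gene of 8 enzyme families, as mean ± SD of 5 libraries at 0 days (grey), 1 day (blue) and 12 days (red) at 31°C. Pfkl, Hk2, Slc16a3 and Pygl hold smaller shares in both later groups, while Ldha falls from 87.0% to 83.0% and then stands at 89.5%.

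The other genes of the pathway came from a list of glucose transporters, rarer isozymes, lactate and pyruvate handling, glycogen metabolism and gluconeogenesis. The count table held 57 of them, of which 52 were tested, and 20 fell and 3 rose at day 1, 18 fell and 2 rose at day 12, and 10 fell and 5 rose between day 1 and day 12. Of all genes tested, 13.4%, 16.2% and 8.53% fell and 7.71%, 13.0% and 10.6% rose in these comparisons. Their median log2 fold changes were -0.296, -0.303 and -0.145. The 3 that rose at day 1 were Slc2a9, a urate and hexose carrier (1.16), Phka1, a subunit of phosphorylase kinase (0.63), and Gys2, the liver glycogen synthase, whose group means were 0.0328, 0.343 and 0.0491 CPM at days 0, 1 and 12. The 2 that rose at day 12 were Pdp1 and the gene listed as 9630033F20Rik, now Tigar, a fructose-2,6-bisphosphatase (0.60 ± 0.055 SE), just past the fold limit, and the count of 2 was 1 without day 0 replicate 2 or 3. The 5 that rose between day 1 and day 12 were Pdp1 (0.79), Slc16a7, which encodes the carrier MCT2 (0.71), Pgm2l1, a glucose-1,6-bisphosphate synthase (1.16), and Eno4 and Fbp1, both under 1 CPM in every group mean. Slc2a4, which encodes the insulin-responsive carrier GLUT4, fell at day 12 from 13.0 ± 0.776 to 7.98 ± 0.488 CPM (log2 fold change -0.70 ± 0.059 SE, adjusted p = 1.17e-10), with 0.16 ± 0.057 SE at day 1. Slc2a3, which encodes GLUT3, was at 3.60, 4.23, 4.01, 3.02 and 4.21 CPM at day 0, 2.15, 1.92, 1.06, 1.53 and 2.36 CPM at day 1 and 1.45, 0.908, 0.850, 1.07 and 1.00 CPM at day 12, and fell on both days (-1.08 ± 0.17 SE and -1.84 ± 0.18 SE).

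Among the 22 other glycogen genes, 10 fell and 2 rose at day 1 and 9 fell at day 12, where 13.4%, 7.71% and 16.2% of all genes did. Ppp1r3b, a subunit that targets protein phosphatase 1 to glycogen and so activates glycogen synthase, was at 36.2, 40.0, 42.4, 33.4 and 37.6 CPM at day 0, 14.5, 15.0, 14.3, 15.1 and 13.9 CPM at day 1 and 11.1, 10.3, 11.7, 10.1 and 12.1 CPM at day 12. It fell by 61.6% at day 1 and fell by 70.8% at day 12. Ppp1r3c, another such subunit, fell at day 12 from 229.9 ± 12.3 to 93.2 ± 4.82 CPM (log2 fold change -1.30 ± 0.039 SE, adjusted p = 3.21e-19). Stbd1, a glycogen-binding protein, was at 13.7, 12.5, 14.3, 12.2 and 14.1 CPM at day 0, 5.90, 5.29, 4.71, 5.73 and 5.45 CPM at day 1 and 4.00, 3.98, 3.74, 4.06 and 3.97 CPM at day 12, in separate ranges. Epm2a, which encodes the glycogen phosphatase laforin, was at 5.39, 5.72, 6.24, 5.00 and 6.54 CPM at day 0, 2.92, 2.96, 2.72, 3.49 and 3.73 CPM at day 1 and 1.56, 1.67, 1.26, 1.85 and 1.43 CPM at day 12. Stbd1 and Epm2a had log2 fold changes of -1.76 ± 0.068 SE and -1.90 ± 0.11 SE at day 12. Gaa, the lysosomal glucosidase that degrades glycogen, fell on both days, from 443 ± 11 to 292 ± 9.29 and 162 ± 4.96 CPM. Gyg, glycogenin, which primes glycogen, had a log2 fold change of 0.029 ± 0.030 SE at day 12 and did not pass the adjusted p.

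**Figure D5:**
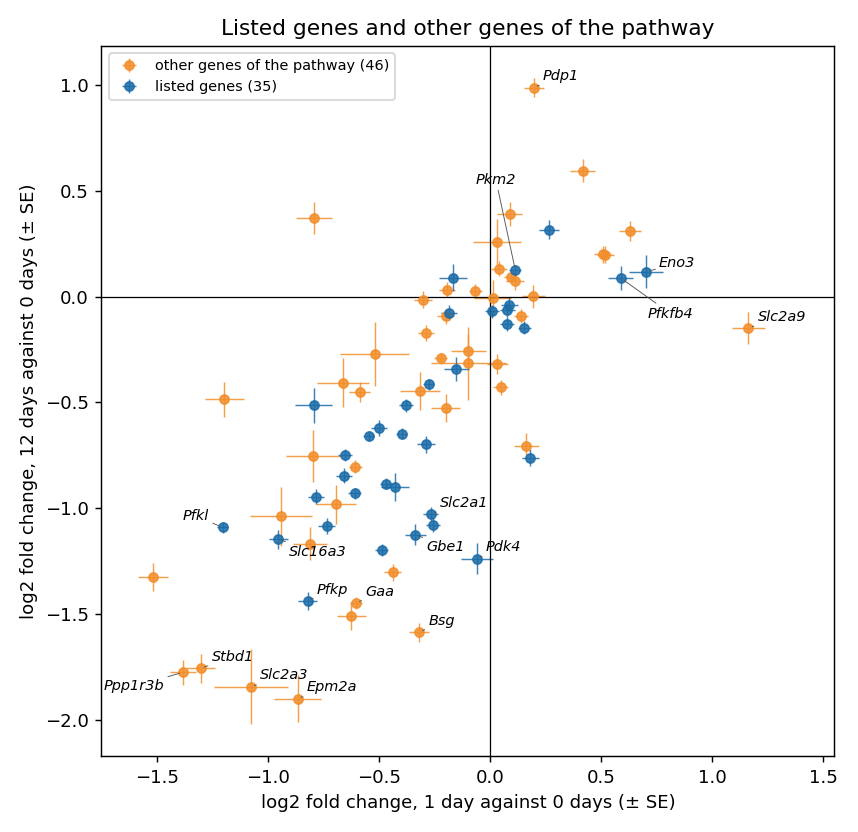
Log2 fold change at day 1 (horizontal) and day 12 (vertical) against the same day 0 libraries, with SE bars, for the 35 genes (blue) and for the 46 of 52 other genes tested whose mean was at least 1 CPM (orange). Most points lie under the horizontal line at 0, Ppp1r3b, Stbd1, Slc2a3 and Epm2a lie lowest, and Pdp1 lies highest at 0.99.

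Genes that regulate glycolysis, and hypoxia genes outside it, were measured beside the pathway. Of 10 hypoxia genes that are no glycolytic enzymes, 6 fell at day 1 and 9 at day 12, beside 13.4% and 16.2% of all genes, and their summed level was 3509 to 4208 CPM at day 0, 2089 to 2122 CPM at day 1 and 1158 to 1299 CPM at day 12. Ero1l, an oxidase of the endoplasmic reticulum, and Vegfa, the angiogenic growth factor, had -2.91 ± 0.067 SE and -1.61 ± 0.043 SE at day 12, while Kdm3a, a histone demethylase, had 0.068 ± 0.043 SE and did not pass. Hif1a, a subunit of the hypoxia-inducible factor, had -0.033 at day 1 and -0.49 at day 12, under the fold limit, and Epas1, which encodes HIF-2α, fell at day 12 (log2 fold change -0.77 ± 0.031 SE, adjusted p = 5.64e-17). Egln3, a prolyl hydroxylase that marks these factors for degradation and is itself raised by hypoxia, fell from 485 ± 63.8 to 199 ± 9.25 and 93.8 ± 7.18 CPM. Myc, a transcription factor with glycolytic targets, rose at day 12 from 22.0 ± 0.657 to 42.2 ± 1.32 CPM (log2 fold change 0.94 ± 0.038 SE, adjusted p = 8.78e-17). The part of these regulators in the levels of the glycolytic genes was not tested. The stromal markers summed to 1470 to 1538 CPM at day 0, 1513 to 1592 CPM at day 1 and 1317 to 1332 CPM at day 12, with Dpp4 and Pi16 under 1 CPM in every library. Within that sum Ly6a and Dlk1 fell at day 12 (log2 fold changes -1.42 and -0.90), while Pdgfrb and Pdgfra had 0.49 and 0.34, under the fold limit. The mesothelial and epithelial markers went from at most 11.5 CPM at day 0 to between 29.5 and 43.9 CPM at day 12, where Msln had a mean of 29.3 CPM. Of the 8 adipocyte markers, 3 fell and 1 rose at day 12. The log2 fold changes at day 12 were -1.58 for Cidec, -1.24 for Adipoq, -0.59 for Pparg and 0.97 for Fabp4, and at day 1 Cidec had fallen by 2.62 and Fabp4 had risen by 0.76 on the log2 scale. The part of these cell type markers, including the fall of Comp from 3717 to 919 CPM, in the results for the 35 genes was not tested.

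The difference between the exposures was tested directly at day 12 against day 1. The 8 genes that were lower at day 12 than at day 1 and passed the test and the fold limit were Slc2a1, Pfkp, Pfkfb3, Eno3, Ldhb, Pdk4, Gbe1 and Pygl, beside 8.53% of all genes. Their log2 fold changes ran from -0.587 for Eno3 to -1.18 for Pdk4. Of these, Pfkp had already fallen at day 1, Eno3 had risen, and the day 1 differences of the others were under the fold limit. They span uptake, phosphofructokinase-1, the making of its activator, enolase, lactate use, the block on pyruvate dehydrogenase, and both building and breakdown of glycogen. Pfkl, Aldoa, Slc16a3 and Gys1, which had fallen at day 1, had log2 fold changes of 0.11, -0.095, -0.19 and -0.16 between day 1 and day 12, with Aldoa at 0.077 and Gys1 at 0.009 under total counts. Hk2, Pgam1, Gpi1 and Aldoc, which had also fallen at day 1, had -0.35, -0.32, -0.19 and 0.28, under the fold limit.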

How the data were processed

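RNA-seq was analysed in 15 libraries, 5 each of cultured adipocytes after 0, 1 and 12 days at 31°C. Raw counts per gene were deposited as a whole-series table that the authors made with TopHat2 2.0.13, Bowtie2 2.2.1 and HTSeq on mm10, per the labels and the submitters' processing notes. Strandedness of the counting and the annotation version are not given in the sources used here, and reads shared by near-identical genes can be lost or split at that step. Total counts ranged from 64648178 to 133270973 per library, no 2 libraries of a group agreed within sampling noise, and the precision given covers counting error and the spread between libraries.

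Here, genes passing filterByExpr (minimum count 10) were fitted with edgeR 4.0.16 in R 4.3.3 (glmQLFit and glmQLFTest, TMM scaling, all libraries, no covariate). Calls needed a Benjamini-Hochberg adjusted p under 0.05 over all genes tested and a fold over 1.5, and SE is the log2 fold change divided by the root of F. The script was first tested on simulated data. Isozyme shares were tested by exact permutation (scipy 1.17.1), two-sided. Exon lengths and near copies came from GENCODE on GRCm38 (blastn 2.17.0), and promoters from RefSeq on GRCm38.p6. DESeq2 1.42.0, other scalings, filters, a replicate block, the library series and each library left out were alternatives. The members and lists were chosen with earlier results of these data known. Values of every library are printed for Slc2a1, Hk2, Gapdh, Pkm2, Ldha, Pdk4 and Gys1, for the 4 lowest and 4 highest members at day 12 among those called against day 0 at 1 CPM or more, and for the 5 other genes of the pathway with the largest change at day 12. Pgk2, Ldhc and Myod1 were not analysed here. The table is named by symbol, with Tigar as 9630033F20Rik, and Mpc1 and Mpc2 as Brp44l and Brp44.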

Additional observations from a re-analysis of the deposited data

Results flagged for a closer look

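In 3 of the 105 groups screened (35 genes in 3 groups), 1 library lay apart from the others of its group by more than Dixon's critical value of 0.71 for 5 libraries, where chance alone gives about 1 group in 20. Pfkfb4 in day 1 replicate 2 was at 19.47 CPM against 21.95 to 22.33 CPM in the other day 1 libraries (gap over range 0.866). Eno2 in day 0 replicate 4 was at 16.64 CPM against 19.44 to 20.5 CPM (0.725). Pdk1 in day 0 replicate 3 was at 149.6 CPM against 136.0 to 139.6 CPM (0.738).

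In 8 genes the response at day 12 differed from that at day 1, both taken against the same day 0 libraries, by edgeR's test of day 12 against day 1 with the fold limit of 1.5. Of all genes tested, 8.53% fell and 10.6% rose by this rule. Without the fold limit, 29 of the 35 genes were lower and 4 higher, beside 32.8% and 34.3% of all genes. The difference, on the log2 scale, was -0.759 for Slc2a1, -0.617 for Pfkp, -0.82 for Pfkfb3, -0.587 for Eno3, -0.941 for Ldhb, -1.177 for Pdk4, -0.787 for Gbe1 and -0.707 for Pygl. All 8 were lower in every library of day 12 than in any of day 1, where 52.5% of all genes tested did not overlap. The 8 were picked by a test on these same libraries, so this separation adds no support. The calls of Pfkp, Eno3 and Pygl were lost with total counts.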

How the results depend on the processing

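Of the 105 calls for the 35 genes (3 comparisons each), DESeq2, RLE scaling, no filter and the replicate block changed 0. Total counts turned the sign of 15 and lost 9 of the calls. The number of the 35 that rose at day 1 was 2, and was 1 with reference genes, with the library series as a covariate and within its larger series, 0 among genes of at least 10 CPM, and 1 to 2 with a library left out. Adjusted p alone gave 9 with 24 lower, at day 12 it gave 2 higher, and between day 1 and day 12 it gave 29 lower with 4 higher. The number lower at day 12 was 14 with total counts and 20 to 21 with a library left out, and at day 12 against day 1 it was 5 with total counts. Of the other genes of the pathway, those of at least 10 CPM gave 0 higher and 6 lower at day 1, 1 and 8 at day 12, and 1 and 5 at day 12 against day 1. Adjusted p alone gave 12 and 31, 10 and 30, and 15 and 24, and 1 to 2 were higher at day 12 with a library left out. Adjusted p alone has no fold limit by construction. Elsewhere the cause was not tested.

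Signs that turned were those of small differences. With total counts, which put the median of all genes at 0.182 (log2) at day 12 against day 1, beside 0.0092 with TMM, that comparison gave 0.077 for Aldoa, 0.009 for Gys1, 0.037 for Hk1, 0.034 for Ldha, 0.051 for Pdk1, 0.049 for Pdk2, 0.093 for Pfkm, 0.059 for Tpi1 and 0.032 for Ugp2. At day 12 against day 0 they gave 0.156 for Pdk2, 0.063 for Pdk3, 0.124 for Pfkm, 0.118 for Pygb, 0.046 for Slc16a1 and 0.13 for Ugp2. Pfkm at day 1 was -0.005 with reference genes, -0.036 among genes of at least 10 CPM, -0.003 in the larger library series and -0.009 to 0.033 with a library left out. Pdk4 at day 1 was -0.119 to 0.004 with a library left out. The share of Pfkp at day 1 differed by 1.952 percentage points in raw counts and by -0.4487 to 0.1314 with a library left out, that of Pfkfb2 by -0.08272 to 0.2771 and that of Pdk4 by -0.1396 to 1.208. Tpi1 at day 1 passed the fold limit among genes of at least 10 CPM (-0.592). The call for the share of Eno1 at day 1 was lost in raw counts and with any of 7 libraries left out. In the larger library series the share tests could not reach the threshold.

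Whether replicate numbers pair the libraries could not be settled. Of 15 same-numbered pairs, 3 had a correlation over 0.1 (range -0.0738 to 0.189), while pairs of different numbers ranged from -0.267 to 0.171. The highest values, 0.189 and 0.188, were those of day 0 replicate 5 with replicate 5 of day 1 and of day 12, all in the smaller library series. With the replicate block, 9 fell and 2 rose at day 1, 20 fell at day 12 and 8 at day 12 against day 1. Depth limits genes under 1 CPM, such as Gys2, Eno4 and Fbp1, and not the 35.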
